A study of Mus musculus with 4 samples.

Results

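Amino acid transporters are the membrane proteins through which cells take up, exchange and store amino acids, and 7 families of them were read in 4 cultures of immortalized mouse embryonic fibroblasts. The cultures carried ectopic Myc, MycN, a protein that the labels call Minimal Myc, or an empty vector, with 1 RNA-seq library each. All 4 received adenovirus carrying Cre, which excises DNA flanked by loxP sequences, and were harvested after a recovery given as 48 with no unit. The series design names the vector culture as the cells with Myc deleted, and asks how expression differs once a Myc protein is present. The labels do not say how Minimal Myc was built, whether a culture is a clone, or how much protein each culture made. No difference below has a replicate check, and no p-value is given.

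The transporter genes were taken by symbol: Slc1a, Slc3a, Slc6a, Slc7a, Slc36a, Slc38a and Slc43a followed by a number. The rule found 62 symbols among 23366 genes. Of these, 61 are transporter genes and 1, Slc7a6os, is a gene beside Slc7a6 on the opposite strand that shares its letters but is no transporter. Of the 61, 26 averaged 1 FPKM or more across the libraries, as did 11950 of all genes. FPKM are fragments scaled to transcript length and library total, so levels can be set beside each other between genes. By family, 3 of 7 Slc1a, 1 of 2 Slc3a, 6 of 19 Slc6a, 6 of 15 Slc7a, 2 of 4 Slc36a, 6 of 11 Slc38a and 2 of 3 Slc43a genes passed. A gene that is high in 1 library alone could pass through that library. Slc6a17 did so, with 5.15 FPKM in Minimal Myc and under 1 in every other library. Most of the mean of Slc6a4 came from its 3.99 FPKM in MycN. Slc43a2 passed with the lowest mean, 1.06 FPKM, and Slc1a7 lay just outside with 0.937.

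The families differ in what they carry and in what drives the carriage. Slc1a proteins take up glutamate or exchange small neutral amino acids such as glutamine; Slc6a proteins use the sodium and chloride gradients, and several of them carry neurotransmitters, taurine or creatine rather than amino acids of protein. Most Slc7a proteins are exchangers of large neutral, cationic or acidic amino acids, and many of them reach the cell surface only when paired with the heavy chain Slc3a2, also called CD98. Slc38a proteins couple neutral amino acids such as glutamine to sodium, Slc36a proteins couple small amino acids to protons, often at the lysosome, and Slc43a proteins let large neutral amino acids pass without a gradient of ions. Growing cells draw on these carriers for protein synthesis and for the amino acid signal that activates the kinase mTORC1.

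The libraries were checked against their labels first. Myc stood at 141 FPKM in Myc, 4.36 in MycN, 32.6 in Minimal Myc and 22.2 in vector. Mycn stood at 0.275 FPKM in Myc, 178 in MycN, 95.9 in Minimal Myc and 0.390 in vector. The vector library thus held Myc reads, and the Minimal Myc library held Mycn reads. Of 10 fibroblast markers 9 were above 1 FPKM, with summed levels of 1679 to 2292 FPKM, while Lum was at most 0.354. Epithelial, adipocyte and endothelial markers summed to at most 1.18 FPKM in any library. The neural list summed to 13.1 FPKM in Myc, 17.8 in MycN, 9.48 in Minimal Myc and 21.3 in vector, nearly all of it Tubb3. Its 5 other genes were under 1 FPKM: Snap25, Rbfox3 and Gfap at or under 0.240 FPKM in all libraries, Syp up to 0.502 and Slc17a7 up to 0.703, both in MycN. Immune markers summed to 5.55, 8.09 and 2.94 FPKM in Myc, MycN and Minimal Myc and to 4.65 in vector, from Cd68 and Csf1r, with Ptprc at or under 0.0215 FPKM.

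Levels are in unscaled FPKM unless the scaled table is named. Summed over the 61 genes, transporter RNA stood at 457 FPKM in Myc, 535 in MycN, 460 in Minimal Myc and 358 in vector. The 5 genes with the highest means, Slc38a2, Slc3a2, Slc6a6, Slc6a8 and Slc7a5, held 56.9%, 55.8% and 58.7% of that sum in Myc, MycN and Minimal Myc and 63.1% in vector. Slc38a was the family with the highest sum in each library, at 121 FPKM in Myc, 178 in MycN, 140 in Minimal Myc and 96.1 in vector. Slc7a was highest in Myc, at 108 FPKM, against 86.2 in MycN, 88.1 in Minimal Myc and 66.1 in vector. The Slc1a sum was 50.6 FPKM in Myc, 68.4 in MycN, 49.0 in Minimal Myc and 31.4 in vector. The authors' second table multiplies each library by 1 factor set with NanoString, which is 2.04 (Myc), 1.30 (MycN), 1.28 (Minimal Myc) or 1 (vector). There the sum over all 61 was 932 FPKM in Myc, 696 in MycN, 591 in Minimal Myc and 358 in vector, so Myc and not MycN was highest. The order of Myc and MycN also turned for the Slc38a sum, at 246 in Myc and 232 in MycN, and for the Slc1a sum, at 103 in Myc and 88.9 in MycN. In bulk RNA of a culture, fewer cells that express a gene and less RNA per cell cannot be told apart.

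Against vector, the 26 measured transporters had median differences of 0.42, 0.40 and 0.41 (log2 of FPKM + 1) in Myc, MycN and Minimal Myc. Over all 11950 genes these medians were 0.47, 0.42 and 0.47, so the transporters as a list lay close to the shift of all genes. Differences smaller than that shift are lower than the typical gene even where their sign is positive. At least 2-fold higher were 3 of 26 in Myc, beside 11.5% of all genes, 4 in MycN (8.16%) and 3 in Minimal Myc (13.7%). Past 2-fold lower stood 0 for Myc (2.29%), 1 in MycN (2.47%) and 0 with Minimal Myc (2.52%). In Myc and Minimal Myc the higher counts are near the background or below it. Centred on the median of all genes, 1, 3 and 1 were higher (background 2.27%, 2.35% and 4.02%) and 2, 1 and 1 lower (5.09%, 4.78% and 5.51%). In the authors' table scaled by NanoString, 19, 11 and 4 were higher (77.5%, 27.6% and 33.4%) and 0, 1 and 0 lower (1.13%, 1.83% and 1.86%). The split between higher and lower therefore turns on the scaling, and genes are named below with their behaviour under it.

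**Figure D1:**
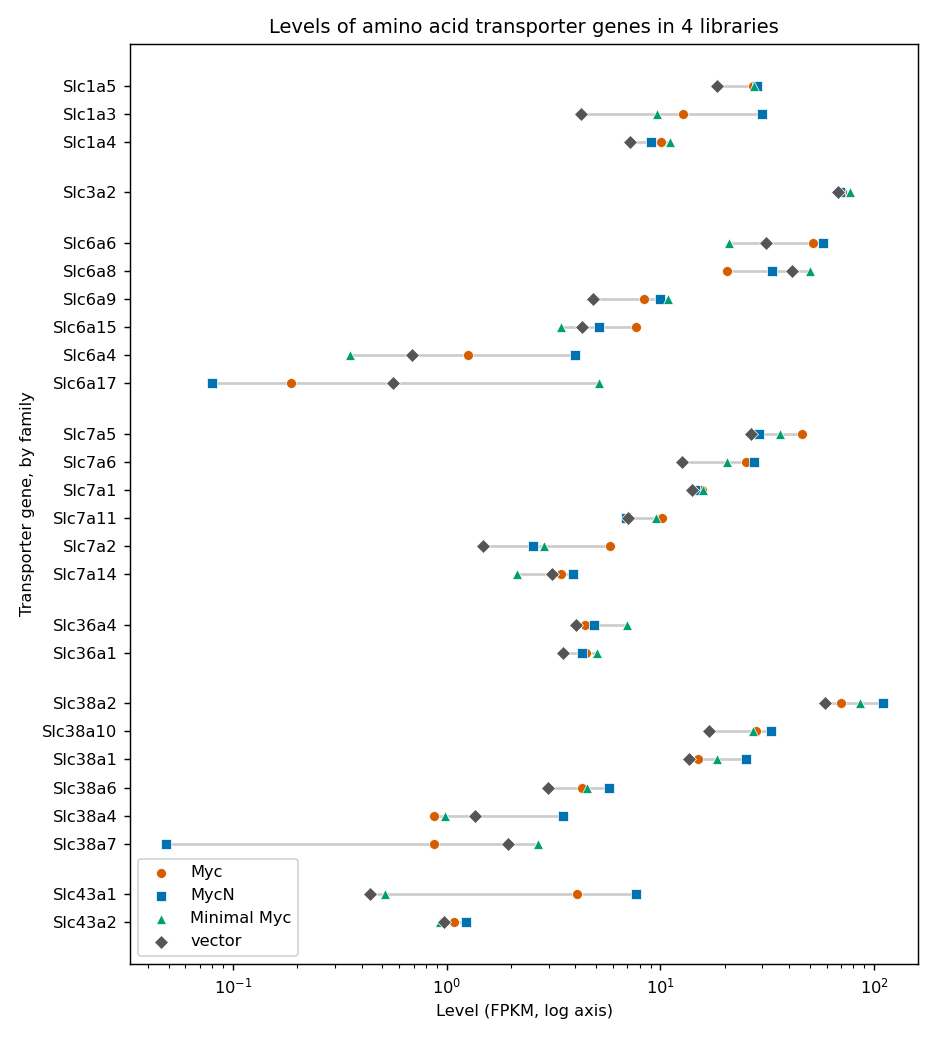
Level of each of the 26 measured transporter genes (rows, grouped by family) in FPKM on a log axis, with 1 symbol per library and a grey line from the lowest to the highest. Slc3a2 and Slc7a1 have 4 nearly equal levels, while Slc43a1, Slc1a3, Slc6a17, Slc6a4 and Slc38a7 span the widest ranges.

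In unscaled FPKM, 13 of the 26 measured transporters had their highest level in MycN, beside 29% of all genes. Minimal Myc held the highest level of 9 (35.3% of all genes), Myc of 4 (29.4%) and vector of 0 (6.28%). The lowest level lay in vector for 16 of 26, beside 66.9% of all genes. After the NanoString scaling the highest level lay in Myc for 18 of 26 (82.6% of all genes), in MycN for 5 (6.18%), in Minimal Myc for 3 (9.29%) and in vector for 0 (1.88%). The 5 that were highest in MycN under both scalings are Slc1a3, Slc6a4, Slc38a1, Slc38a4 and Slc43a1. In unscaled values, at least 2-fold between some pair of libraries were 11 of 26 (42.3%), against 31.4% of all genes and 27% of 148 other Slc genes. The median of the widest difference was 0.91 (log2) for the transporters, 0.80 for all genes and 0.74 for other Slc genes. With the NanoString scaling 23 of 26 were at least 2-fold apart (88.5%), beside 86.8% of all genes, so this difference from all genes was not seen there.

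Slc43a1, the large neutral amino acid transporter LAT3, had the widest range on the log2(FPKM + 1) scale. As a plain ratio of FPKM, Slc6a17 (64.4) and Slc38a7 (54.8), both with a library under 0.1 FPKM, exceeded it (17.5). Its level was 4.08 FPKM in Myc, 7.70 in MycN, 0.517 in Minimal Myc and 0.440 in vector. Myc and MycN were high, and Minimal Myc lay beside vector. The difference from vector was 1.82 (log2) in Myc and 2.59 in MycN, and it was 1.35 and 2.18 after centring and 2.70 and 2.93 in the scaled table. Among 11950 genes ranked from the highest difference these were places 123 and 71. In Minimal Myc the difference from vector was 0.08, or -0.39 after centring, while Minimal Myc stood at -1.74 (log2) against Myc and at -2.52 against MycN. Its relative Slc43a2, the transporter LAT4, was 1.08 FPKM in Myc, 1.23 in MycN, 0.930 in Minimal Myc and 0.977 in vector, under 1.5-fold apart throughout. Slc43a3, which carries purine nucleobases rather than amino acids, was below the filter, with 0.110 FPKM in Myc, 1.59 in MycN, 0.0387 in Minimal Myc and 0.111 in vector.

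Promoter sequence is shown here because Myc and Max bind the E-box CACGTG, and because the members that hold this word differ in how they were expressed. RefSeq windows (build GRCm38.p6, 250 bases before to 50 after the start site) existed for 19 of the 26 measured genes, with 27 windows in all. None existed for Slc1a5, Slc38a1, Slc6a15, Slc6a6, Slc6a8, Slc7a2 and Slc7a5. The word, which reads the same on both strands, was in windows of 4 of these 19 genes (14.8% of their windows) and in 7.15% of 32851 windows of all genes. They are Slc43a1, Slc38a7, Slc36a1 and Slc7a14. The 250 bases before the start site are printed 5′ to 3′ on the gene's strand, with each whole E-box in capitals; Slc1a3, which was high in MycN, is added as a promoter with no such word. Slc43a1 is chr2:84840073-84840322 (plus strand), Slc38a7 chr8:95853492-95853741 (minus), Slc36a1 chr11:55204090-55204339 (plus), Slc7a14 chr3:31310320-31310569 (minus) and Slc1a3 chr15:8710808-8711057 (minus).
Slc43a1: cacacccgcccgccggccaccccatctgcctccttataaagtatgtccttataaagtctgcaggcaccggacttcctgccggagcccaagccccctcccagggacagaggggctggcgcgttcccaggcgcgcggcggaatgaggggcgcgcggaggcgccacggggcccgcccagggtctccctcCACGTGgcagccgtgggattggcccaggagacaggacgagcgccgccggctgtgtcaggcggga
Slc38a7: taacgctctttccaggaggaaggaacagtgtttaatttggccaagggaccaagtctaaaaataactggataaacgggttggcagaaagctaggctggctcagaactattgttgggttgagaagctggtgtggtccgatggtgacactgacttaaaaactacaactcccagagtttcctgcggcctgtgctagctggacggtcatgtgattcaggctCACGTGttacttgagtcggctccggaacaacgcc
Slc36a1: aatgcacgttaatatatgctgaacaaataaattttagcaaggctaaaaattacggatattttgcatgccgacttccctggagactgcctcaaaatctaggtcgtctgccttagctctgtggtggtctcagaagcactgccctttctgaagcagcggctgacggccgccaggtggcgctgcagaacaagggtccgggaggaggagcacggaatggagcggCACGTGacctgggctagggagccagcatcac
Slc7a14: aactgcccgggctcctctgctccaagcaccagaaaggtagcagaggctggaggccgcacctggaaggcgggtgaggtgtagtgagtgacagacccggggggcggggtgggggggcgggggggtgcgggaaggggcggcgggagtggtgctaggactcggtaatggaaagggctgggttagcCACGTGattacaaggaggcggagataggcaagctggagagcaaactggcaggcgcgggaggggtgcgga
Slc1a3: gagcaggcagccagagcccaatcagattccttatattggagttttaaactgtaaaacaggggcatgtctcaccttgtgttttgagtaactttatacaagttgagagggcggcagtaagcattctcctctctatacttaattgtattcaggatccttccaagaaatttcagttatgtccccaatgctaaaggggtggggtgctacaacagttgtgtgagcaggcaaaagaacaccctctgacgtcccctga

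The E-box lies at positions -64 to -59 from the start site in Slc43a1, -34 to -29 in Slc38a7, -31 to -26 in Slc36a1 and -69 to -64 in Slc7a14. Slc36a1 has another at -3 to 3, across the start site, which overlaps a match of the antioxidant response word and is not shown whole. The genes with this word did not share an order of levels. Whether levels follow the word over all measured genes was not tested. Slc43a1 was high in Myc and MycN, Slc38a7 was lowest in MycN, and Slc36a1 was 4.50 FPKM in Myc, 4.29 in MycN, 5.03 in Minimal Myc and 3.50 in vector. Slc36a1 is a proton-coupled carrier of small amino acids found on lysosomes. Slc7a14 was 3.44 FPKM in Myc, 3.89 in MycN, 2.13 in Minimal Myc and 3.10 in vector. A match is a description of the letters, not of binding.

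Slc1a3, the glutamate and aspartate transporter GLAST of glial cells, had the highest difference from vector in MycN after Slc43a1. Slc6a4 followed at 1.56 (log2). Slc1a3 stood at 12.7 FPKM in Myc, 29.8 in MycN, 9.68 in Minimal Myc and 4.27 in vector. The 3 cultures with a Myc protein were all above vector, MycN by the most. Against vector, Myc stood at 1.38 (log2), MycN at 2.54 and Minimal Myc at 1.02. After centring they were 0.91, 2.13 and 0.55, so that at least 2-fold held under each scaling for MycN alone of the 3. MycN was 1.17 above Myc, which became 0.56 in the scaled table. Of the other glutamate carriers, Slc1a1, Slc1a2 and Slc1a6 were under 0.165 FPKM in each library and Slc1a7 was 0.746 FPKM in Myc, 1.11 in MycN, 0.669 in Minimal Myc and 1.22 in vector. The summed level of the 5 glutamate carriers was 13.6 FPKM in Myc, 31.1 in MycN, 10.5 in Minimal Myc and 5.72 in vector, and MycN was the highest in the scaled table too, at 40.4 FPKM.

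The exchangers of small neutral amino acids lay close to the shift of all genes. Slc1a5, the glutamine exchanger ASCT2, was 27.0 FPKM in Myc, 28.2 in MycN, 27.4 in Minimal Myc and 18.4 in vector. Its differences from vector of 0.53, 0.59 and 0.55 (log2) were 0.06, 0.17 and 0.08 after centring, that is, near the shift of all genes. Slc1a4, the alanine, serine and cysteine exchanger ASCT1, was 10.1 FPKM in Myc, 9.08 in MycN, 11.1 in Minimal Myc and 7.23 in vector.

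The heavy chain Slc3a2 was the second most abundant transporter and among the steadiest. Its level was 70.9 FPKM in Myc, 69.2 in MycN, 77.3 in Minimal Myc and 68.0 in vector. These differences from vector, 0.06, 0.03 and 0.18 (log2), lay below the shift of all genes, at -0.41, -0.39 and -0.29 after centring, and at 1.08, 0.40 and 0.54 in the scaled table. Its kidney counterpart Slc3a1 was 0.181 FPKM in Myc, 0.331 in MycN, 0.150 in Minimal Myc and 0.169 in vector. The light chains that pair with Slc3a2 varied more. Slc7a5, the large neutral amino acid exchanger LAT1, was 46.0 FPKM in Myc, 28.9 in MycN, 36.1 in Minimal Myc and 26.5 in vector. Myc was the highest, at 0.78 (log2) above vector, or 0.31 after centring. MycN was 0.12 above vector, which is -0.29 after centring. The proteins of Slc7a5 and Slc3a2 together form LAT1-CD98, the main entry of leucine in many dividing cells.

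Slc7a6, the exchanger y+LAT2, was 25.3 FPKM in Myc, 27.3 in MycN, 20.6 in Minimal Myc and 12.7 in vector. In MycN it was 1.05 (log2) above vector and in Myc 0.94, or 0.63 and 0.47 after centring. Slc7a6os had 42.0 FPKM in Myc, 43.2 in MycN, 30.7 in Minimal Myc and 21.8 in vector. It differed from vector by about as much as Slc7a6, at 0.91 in Myc and 0.95 in MycN. The libraries keep strand, and use of strand in the authors' counting was not stated in the labels. Reads of the 2 genes may therefore be shared where they overlap. Slc7a11, the cystine and glutamate exchanger xCT, was 10.1 FPKM in Myc, 6.90 in MycN, 9.57 in Minimal Myc and 7.08 in vector. Over the 6 genes of Slc3a2 light chains the sum was 81.8 FPKM in Myc, 63.7 in MycN, 66.6 in Minimal Myc and 46.5 in vector. The ratio of this sum to Slc3a2 was 1.15 in Myc, 0.921 in MycN, 0.862 in Minimal Myc and 0.684 in vector, and the scaling of a library does not alter it.

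**Figure D2:**
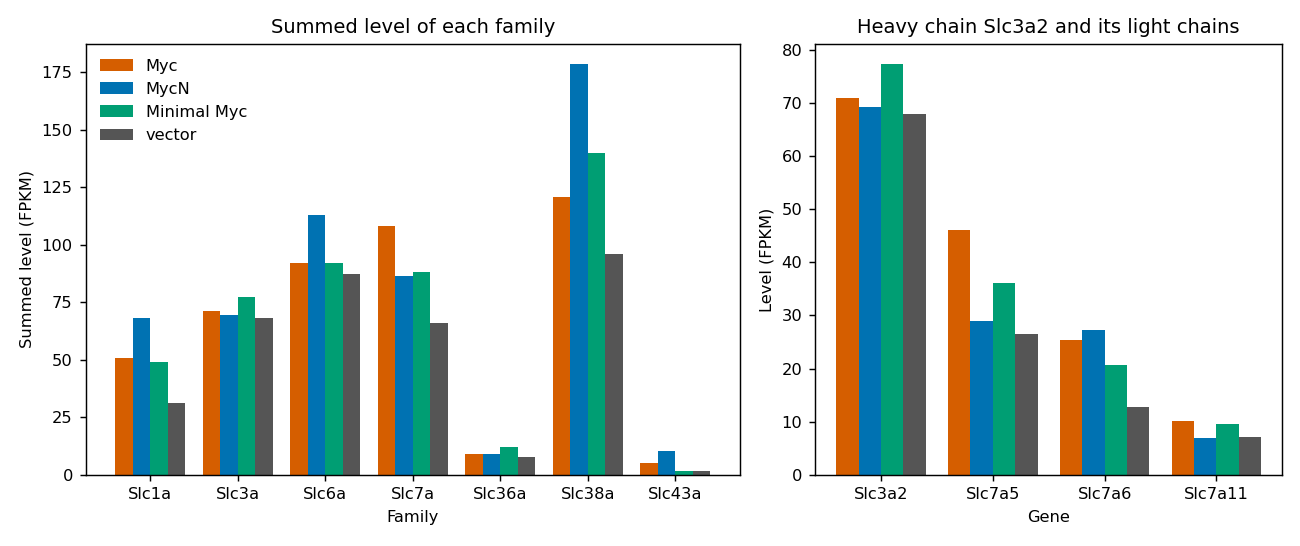
Left, summed FPKM of all members of each family in the 4 libraries; right, FPKM of the heavy chain Slc3a2 and of 3 light chains, with 1 bar per library and no error bars because each group has 1 library. In these unscaled values the Slc38a sum is highest in MycN at 178 FPKM, while in the scaled table it is highest in Myc, and Slc3a2 stays between 68.0 and 77.3 FPKM while Slc7a5 is 46.0 in Myc and 26.5 in vector.

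Slc7a11 is a known target of Atf4, and its promoter is printed because it held 2 matches of the amino acid response word TGATGNAAN, searched on both strands. In the window chr3:50443614-50443863 (minus strand, GRCm38.p6) they lie at -66 to -58 and -48 to -40, in capitals.
Slc7a11: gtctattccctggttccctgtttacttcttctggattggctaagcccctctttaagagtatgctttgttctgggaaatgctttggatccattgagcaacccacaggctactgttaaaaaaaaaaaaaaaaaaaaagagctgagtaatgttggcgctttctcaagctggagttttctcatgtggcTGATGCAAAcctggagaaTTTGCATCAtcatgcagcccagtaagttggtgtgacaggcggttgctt

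The word was in 3.95% of windows of all genes and in windows of 2 of the 19 measured genes (7.41% of their windows), Slc7a11 and Slc1a4. Neither gene reached 2-fold in any of the 6 comparisons of unscaled FPKM. The antioxidant response word TGACNNNGC was in windows of 6 of the 19 genes (29.6% of 27 windows) and in 12.4% of all windows.

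Cationic amino acids enter through Slc7a1, Slc7a2 and Slc7a3. Slc7a1, the carrier CAT1 of arginine and lysine, was 15.6 FPKM in Myc, 14.5 in MycN, 15.8 in Minimal Myc and 14.1 in vector, the narrowest range of the 26 genes in unscaled values. Slc7a2, the carrier CAT2, was 5.80 FPKM in Myc, 2.53 in MycN, 2.85 in Minimal Myc and 1.49 in vector. Myc stood apart from the others, at 1.45 (log2) above vector, or 0.98 after centring, which is short of 2-fold. The direction against vector was the same in MycN (0.50) and Minimal Myc (0.63). Slc7a3, the carrier CAT3, was below the filter with 1.18 FPKM in Myc, 1.20 in MycN, 0.674 in Minimal Myc and 0.643 in vector.

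The sodium-coupled Slc38a genes were highest in MycN in 5 of 6 measured cases in unscaled FPKM, beside 29% of all genes. After the NanoString scaling this held for 2 of 6, Slc38a1 and Slc38a4, beside 6.18% of all genes. Slc38a1, Slc38a2 and Slc38a4 follow each other on chromosome 15, so they may not be separate cases. Of the genes of that chromosome 40.6% were highest in MycN and 40.6% in Minimal Myc, in unscaled FPKM. Slc38a2, the glutamine carrier SNAT2, was 70.3 FPKM in Myc, 110 in MycN, 85.8 in Minimal Myc and 58.7 in vector. It was the most abundant of the 61 genes by its mean. Slc38a1, the carrier SNAT1, was 15.0 FPKM in Myc, 25.1 in MycN, 18.4 in Minimal Myc and 13.7 in vector. Slc38a4, the carrier SNAT4, was 0.875 FPKM in Myc, 3.51 in MycN, 0.985 in Minimal Myc and 1.36 in vector. In unscaled FPKM all 3 were highest in MycN. For Slc38a2, Slc38a1 and Slc38a4, MycN exceeded vector by 0.89, 0.84 and 0.94 (log2 of FPKM + 1), and exceeded Myc by 0.63, 0.70 and 1.27. In the scaled table the differences from Myc were -0.01, 0.09 and 0.999, so for Slc38a2 the order of MycN and Myc turned with the scaling.

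Slc38a10 was 27.9 FPKM in Myc, 32.8 in MycN, 27.0 in Minimal Myc and 16.9 in vector, and Slc38a6 was 4.29, 5.74 and 4.54 FPKM in Myc, MycN and Minimal Myc and 2.97 in vector. For these genes too MycN was above Myc in unscaled values, by 0.22 and 0.35 (log2), and below it in the scaled table, at -0.41 and -0.21. Slc38a7, the lysosomal glutamine exporter SNAT7, was lowest in MycN. It stood at 0.869 FPKM in Myc, 0.0486 in MycN, 2.66 in Minimal Myc and 1.94 in vector. Against vector MycN stood at -1.49 (log2), at -1.90 after centring and at -1.47 in the scaled table. The depth behind these values is unknown, and the difference rests on 1 low value in 1 library. Without Slc38a7, 0 of 25 transporters were at least 2-fold lower in MycN than in vector. Slc38a9, the lysosomal arginine sensor of mTORC1, was below the filter with 1.18 FPKM in Myc, 1.28 in MycN, 0.657 in Minimal Myc and 0.567 in vector. Slc36a4, the other measured gene of the proton-coupled family, was 4.43 FPKM in Myc, 4.87 in MycN, 6.95 in Minimal Myc and 4.05 in vector. Slc36a2 of that family was below the filter with 0.0919 FPKM in Myc, 0.0719 in MycN, 0.126 in Minimal Myc and 0.0466 in vector.

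**Figure D3:**
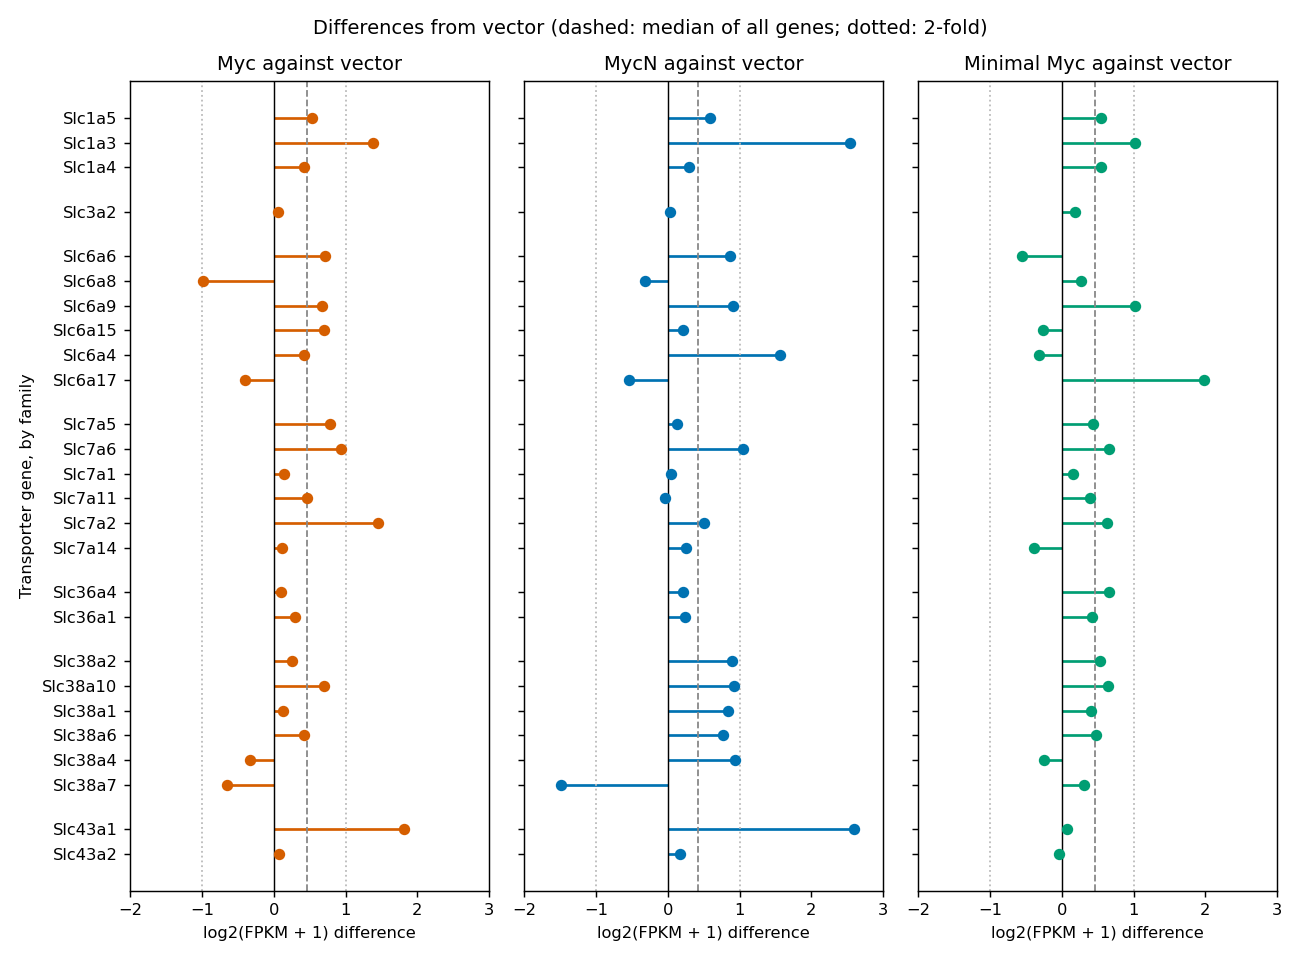
Difference of each of the 26 transporter genes from vector on the log2(FPKM + 1) scale, in Myc, MycN and Minimal Myc, with the median of all genes dashed (0.47, 0.42 and 0.47) and 2-fold dotted. Slc43a1 and Slc1a3 stand out in MycN, Slc6a17 in Minimal Myc, and Slc38a7 in MycN is the only point beyond 2-fold lower.

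The Slc6a family held a gene that was high in Minimal Myc alone and another with its lowest level there. Slc6a17, a carrier of neutral amino acids into synaptic vesicles, was 0.188 FPKM in Myc, 0.0800 in MycN, 5.15 in Minimal Myc and 0.563 in vector. It was high in Minimal Myc alone, 1.98 (log2) above vector, 2.37 above Myc and 2.51 above MycN, and 1.51 above vector after centring. Slc6a17 passed the filter only through Minimal Myc, so its place among the measured genes rests on the same value. Slc6a6, the taurine transporter, was lowest there, at 51.8 FPKM in Myc, 57.6 in MycN, 21.0 in Minimal Myc and 31.3 in vector. Minimal Myc was at -1.26 against Myc and -1.41 against MycN, at least 2-fold lower under each of the 3 scalings. Against vector it was at -0.55, or -1.02 after centring and -0.21 in the scaled table.

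Slc6a8, the creatine transporter, was 20.5 FPKM in Myc, 33.2 in MycN, 50.2 in Minimal Myc and 41.4 in vector. Myc was the lowest, at -0.98 (log2) against vector, -1.45 after centring and 0.02 in the scaled table, so its direction turned with the scaling. Slc6a9, the glycine transporter GlyT1, was 8.34 FPKM in Myc, 9.95 in MycN, 10.9 in Minimal Myc and 4.85 in vector, with all 3 Myc proteins above vector by 0.67, 0.90 and 1.02. After centring these were 0.21, 0.49 and 0.55. Slc6a4, the serotonin transporter, was 1.26 FPKM in Myc, 3.99 in MycN, 0.354 in Minimal Myc and 0.688 in vector. It was 1.56 above vector in MycN and 1.15 after centring, and its pass of the filter leaned on that library. Slc6a15, a carrier of branched-chain amino acids and proline, was 7.67 FPKM in Myc, 5.16 in MycN, 3.44 in Minimal Myc and 4.32 in vector.

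Between the Myc proteins, MycN against Myc had 3 of 26 transporters at least 2-fold higher (background 2.56%) and 0 lower (3%). The 3 were Slc1a3, Slc38a4 and Slc6a4, and by the NanoString scaling 0 were higher (1.35%) and 5 lower (20.3%). Centred, the counts were 3 (2.89%) and 0 (2.63%). Minimal Myc against Myc had 2 higher (4.74%), Slc6a17 and Slc6a8, and 2 lower (2.7%), Slc43a1 and Slc6a6. By the NanoString scaling 1 was higher (2.68%) and 8 lower (18.2%), and centred 2 (4.9%) and 2 (2.54%). Minimal Myc against MycN had 2 higher (7.08%), Slc6a17 and Slc38a7, and 5 lower (4.41%), namely Slc1a3, Slc38a4, Slc43a1, Slc6a4 and Slc6a6. Centred values gave 2 higher (6.66%) and 5 lower (4.73%), and the NanoString scaling 2 (7.1%) and 5 (4.87%). The median over the 26 was 0.11 (log2) in MycN against Myc, 0.02 in Minimal Myc against Myc and -0.12 in Minimal Myc against MycN, beside -0.06, -0.03 and 0.04 over all genes. The comparisons share libraries and are not independent of each other.

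Whole chromosomes also differed between the cultures, and some transporters lie on them. Chromosomes were assigned by symbol from RefSeq (GRCm38.p6) for 92.7% of the genes. The 347 measured genes of chromosome X had a median difference of 0.54 (log2) in Minimal Myc against Myc, 0.78 against MycN and 1.06 against vector, beside -0.03, 0.04 and 0.47 over all genes. Slc6a8 lies on it. Its 1.25 in Minimal Myc against Myc was 0.71 above the median of its chromosome. Relative to that median Slc6a8 stood at -0.79 in Minimal Myc against vector and -0.20 in Minimal Myc against MycN. In Myc against vector it stood at -1.46. Of the 597 genes of chromosome 8, 66.5% were highest in MycN in unscaled FPKM, beside 29% of all genes. In the scaled table this was 15.9%, beside 6.18% of all genes. Their median was 0.25 in MycN against Myc and 0.60 in MycN against vector. Slc7a6 lies there, and its 1.05 in MycN against vector was 0.45 above that median. Slc38a7, Slc7a2 and Slc7a5 lie there too and were lower in MycN than in Myc.

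Slc1a3, Slc38a1, Slc38a2 and Slc38a4 lie on chromosome 15. Of its 458 genes, 40.6% were highest in MycN in unscaled FPKM, beside 29% of all genes. An equal share, 40.6%, was highest in Minimal Myc, beside 35.3% of all genes. After the NanoString scaling these shares were 13.1% and 9.61%, beside 6.18% and 9.29% of all genes. The median of the chromosome was 0.17 in MycN against Myc. Slc1a3 was 0.9995 above that median, just short of 2-fold, and Slc38a4 1.10. Against vector, Slc1a3 stood above the chromosome's median by 2.10 in MycN, 1.15 in Myc and 0.59 in Minimal Myc, the last short of 2-fold. Slc43a1, Slc6a17, Slc6a4 and Slc6a6 kept differences of at least 2-fold after the median of their chromosome was taken away: 2.16 for Slc43a1 in MycN against vector, 1.72 for Slc6a17 in Minimal Myc against vector, 1.13 for Slc6a4 in MycN against vector and -1.40 for Slc6a6 in Minimal Myc against MycN. On chromosome 8, the same step left Slc38a7 at -2.08 in MycN against vector and Slc7a2 at 1.12 in Myc against vector. The part of these chromosome-wide differences in the levels of Slc6a8, Slc7a6 and the Slc38a genes was not tested.

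**Figure D4:**
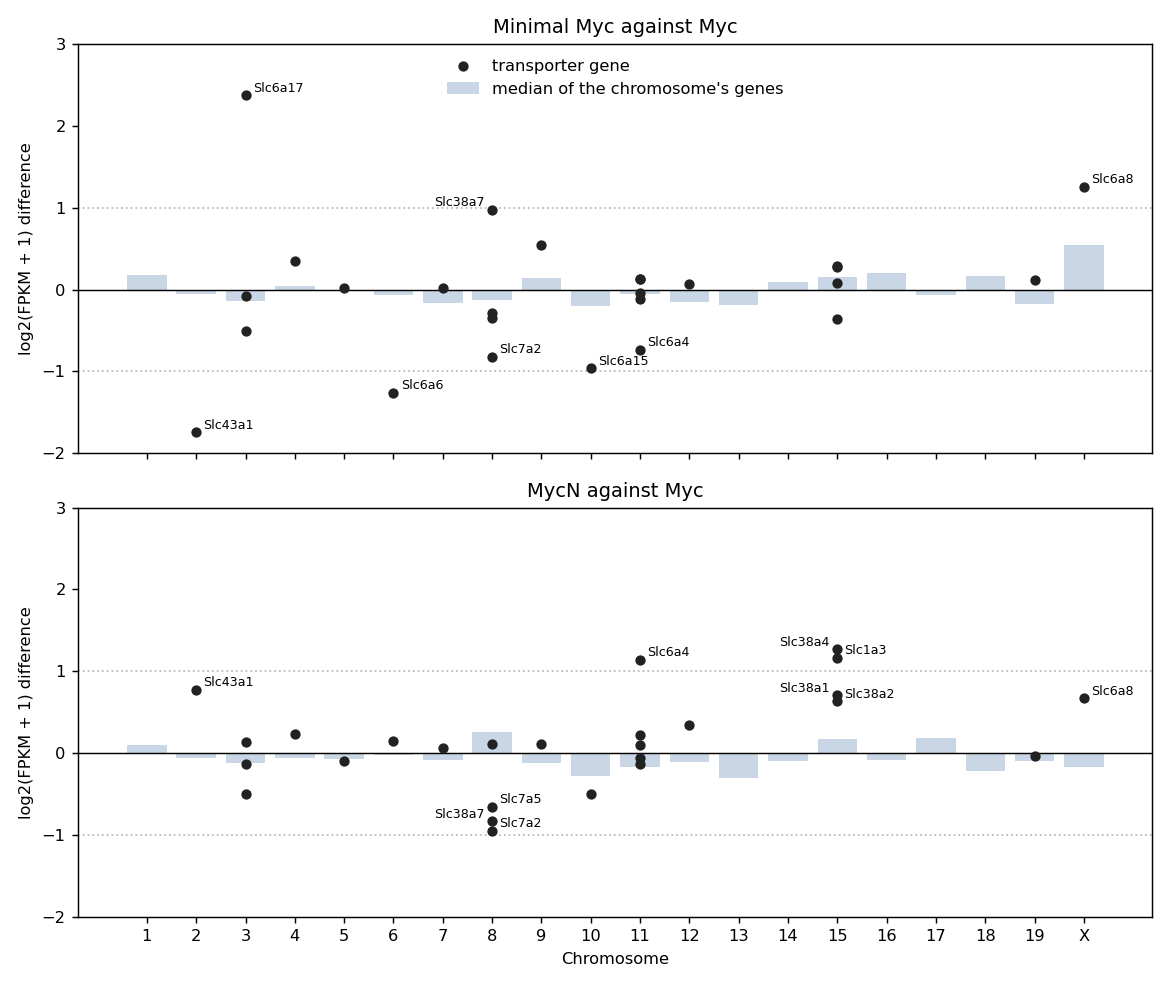
Difference of each measured transporter gene (points) on the log2(FPKM + 1) scale, by chromosome, with the median of all measured genes of that chromosome as bars, for Minimal Myc against Myc (above) and MycN against Myc (below). Chromosome X has a median of 0.54 in Minimal Myc against Myc, with Slc6a8 at 1.25, and the 4 transporters of chromosome 15 lie above its median of 0.17 in MycN against Myc.

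Below the filter were 35 of the 61 transporters. Of these, 19 were under 0.1 FPKM in each library and 6 reached 1 FPKM in some library. The 6 were Slc1a7, Slc38a9, Slc43a3 and Slc7a3, given above, with Slc6a12, a betaine transporter, at 0.762 FPKM in Myc, 0.822 in MycN, 0.124 in Minimal Myc and 1.16 in vector, and Slc6a18 at 0.586, 0.846 and 0.514 FPKM in Myc, MycN and Minimal Myc and 1.76 in vector. At least 1 library is listed at 0 for 15 of the 35, and all 4 are for Slc7a12. A value of 0 can be a failed estimate. No measured transporter is listed at 0. The carriers of dopamine (Slc6a3) and noradrenaline (Slc6a2) were at most 0.258 FPKM.

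Other carriers of amino acids were read beside the families. Of 15 measured, 2 were at least 2-fold higher than vector in each of Myc, MycN and Minimal Myc, beside 11.5%, 8.16% and 13.7% of all genes, and 0 lower. Centred, 1, 0 and 0 were higher, beside 2.27%, 2.35% and 4.02% of all genes. With the NanoString scaling 12, 2 and 4 were higher (77.5%, 27.6% and 33.4% of all genes), with 0 lower under both. Their median differences were 0.49, 0.37 and 0.44 (log2), against 0.47, 0.42 and 0.47 over all genes. Sfxn1, the mitochondrial serine carrier, was 31.5 FPKM in Myc, 23.6 in MycN, 15.3 in Minimal Myc and 8.61 in vector. Slc25a22, a mitochondrial glutamate carrier, was 11.8 FPKM in Myc, 8.76 in MycN, 15.5 in Minimal Myc and 5.33 in vector. Sfxn2, a relative of Sfxn1, was 6.25 FPKM in Myc, 4.81 in MycN, 7.55 in Minimal Myc and 3.13 in vector. Slc17a5, the lysosomal sialic acid exporter, was 6.88 FPKM in Myc, 7.87 in MycN, 4.65 in Minimal Myc and 3.15 in vector. Over 148 other Slc genes of any substrate, 12, 14 and 14 were higher in Myc, MycN and Minimal Myc (11.5%, 8.16% and 13.7% of all genes). Lower were 2, 3 and 2 (2.29%, 2.47% and 2.52% of all genes), and the medians were 0.39, 0.38 and 0.36. Centred, 4, 4 and 3 were higher (2.27%, 2.35% and 4.02%) and 3, 7 and 4 lower (5.09%, 4.78% and 5.51%). With the NanoString scaling 110, 41 and 28 were higher (77.5%, 27.6% and 33.4%) and 0, 3 and 1 lower (1.13%, 1.83% and 1.86%).

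Enzymes that use the transported amino acids had higher medians than the carriers. Over 28 measured genes the medians for Myc, MycN and Minimal Myc against vector were 0.75, 0.56 and 0.58. Past 2-fold higher were 8, 6 and 3 of them, beside 11.5%, 8.16% and 13.7% of all genes, and 0 lower. After centring these counts were 1, 0 and 1 higher (2.27%, 2.35% and 4.02% of all genes) and 1, 1 and 0 lower (5.09%, 4.78% and 5.51%). With the NanoString scaling 26, 13 and 12 were higher (77.5%, 27.6% and 33.4% of all genes) and 0 lower. Cth, which makes cysteine from cystathionine, was 6.47 FPKM in Myc, 3.84 in MycN, 37.1 in Minimal Myc and 6.24 in vector. Bcat2, the mitochondrial aminotransferase of branched-chain amino acids, was 14.1 FPKM in Myc, 11.5 in MycN, 8.65 in Minimal Myc and 4.45 in vector. Bckdha, a subunit of the next enzyme of that route, was 16.1 FPKM in Myc, 19.8 in MycN, 9.82 in Minimal Myc and 7.09 in vector.

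Genes of amino acid sensing upstream of mTORC1 lay near the shift of all genes, with medians of 0.42, 0.34 and 0.46 over 30 measured genes. Past 2-fold higher were 3, 1 and 1 of them for Myc, MycN and Minimal Myc, beside 11.5%, 8.16% and 13.7% of all genes, and 0 lower. After centring all these counts were 0, beside 2.27%, 2.35% and 4.02% of all genes higher. With the NanoString scaling 24, 5 and 9 were higher (77.5%, 27.6% and 33.4% of all genes) and 0 lower. Gatsl3, the arginine sensor also called Castor1, was 4.12 FPKM in Myc, 1.99 in MycN, 3.17 in Minimal Myc and 1.06 in vector. Sesn1, a sestrin, was 14.0 FPKM in Myc, 10.9 in MycN, 6.09 in Minimal Myc and 5.96 in vector. Sesn3 was 7.65 FPKM in Myc, 7.68 in MycN, 6.03 in Minimal Myc and 3.03 in vector.

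The Gcn2 and Atf4 arm, which cells switch on when amino acids are short, had medians of -0.09, -0.08 and 0.44 for Myc, MycN and Minimal Myc against vector over 15 measured genes, below all genes in Myc and MycN. Past 2-fold higher than vector were 1, 1 and 2 of the 15, beside 11.5%, 8.16% and 13.7% of all genes. Past 2-fold lower were 0, 2 and 0, beside 2.29%, 2.47% and 2.52% of all genes. Centred, 1, 1 and 2 were higher (2.27%, 2.35% and 4.02%) and 3, 5 and 0 lower (5.09%, 4.78% and 5.51%). With the NanoString scaling 6, 3 and 5 were higher (77.5%, 27.6% and 33.4%) and 0, 1 and 0 lower (1.13%, 1.83% and 1.86%). In the scaled table the medians were 0.89, 0.29 and 0.80, beside 1.42, 0.76 and 0.80 over all genes. The sign in Myc and MycN thus turned with the scaling. Both medians stayed below those of all genes, as they did after centring, at -0.56 and -0.50. Atf5, a transcription factor of this arm, was 56.6 FPKM in Myc, 28.6 in MycN, 134 in Minimal Myc and 98.9 in vector. Stc2, a secreted glycoprotein, was 2.94 FPKM in Myc, 0.645 in MycN, 9.41 in Minimal Myc and 2.37 in vector. Ddit4, an inhibitor of mTORC1, was 48.8 FPKM in Myc, 42.9 in MycN, 17.2 in Minimal Myc and 8.97 in vector. Cebpb, a transcription factor, was 150 FPKM in Myc, 146 in MycN, 232 in Minimal Myc and 79.3 in vector.

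Among 10 measured partners and regulators of transporters, 1, 0 and 3 were at least 2-fold higher than vector in Myc, MycN and Minimal Myc and 0 lower, with medians of 0.66, 0.34 and 0.51. All genes were higher in 11.5%, 8.16% and 13.7% of cases. Centred, 1, 0 and 0 were higher (2.27%, 2.35% and 4.02%) and 0, 1 and 0 lower (5.09%, 4.78% and 5.51%), so that no Minimal Myc call was left. With the NanoString scaling 8, 3 and 4 were higher (77.5%, 27.6% and 33.4% of all genes) and 0 lower. Nfe2l2, the transcription factor Nrf2 that acts on Slc7a11, was 40.8 FPKM in Myc, 37.7 in MycN, 53.5 in Minimal Myc and 22.9 in vector. Keap1, which holds Nrf2 down, was 21.0 FPKM in Myc, 14.9 in MycN, 28.3 in Minimal Myc and 12.9 in vector. Txnip, an arrestin that lowers glucose uptake, was 47.6 FPKM in Myc, 17.8 in MycN, 32.5 in Minimal Myc and 14.4 in vector.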

How the data were processed

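Polyadenylated RNA of 4 cultures was sequenced as strand-keeping libraries, per the labels' protocols, with 1 library per group. The authors deposited 2 tables of FPKM; TopHat2 2.0.11, Cufflinks 2.2.0 and build mm9 are named in the submitters' processing notes with no role given. In the second table each library is the first multiplied by 1 factor (2.04 Myc, 1.30 MycN, 1.28 Minimal Myc, 1 vector). Of 26608 rows, 32 hold NanoString signal, 0 of them for a transporter, and were left out. Identical rows of a gene were merged and differing rows summed (0 of the members). Genes averaging 1 FPKM or more were kept. Differences are of log2(FPKM + 1), which understates low genes, and are called at 2-fold. The calling was tested on simulated data, with changes larger than 2-fold placed only in genes of higher level. That check does not cover differences near 2-fold or genes of low level. With 1 library per group there is no test, and depth is unknown from FPKM, so no interval is given. The members, lists and motifs were chosen with earlier results of these data known. Values are given in all 4 libraries for the members at least 2-fold apart between any 2 libraries and the 3 highest of each family, and from each other list for up to 4 genes furthest from vector; some single genes are not reported here. Other members (Slc6a15, Slc7a3, Slc7a11, Slc7a14, Slc38a6, Slc38a9 and those below the filter) were added after their values were seen, as were the chromosome medians and the neighbouring genes. Python 3.11.15, pandas 2.3.3, numpy 2.4.6, Biopython 1.88 and matplotlib 3.10.9 were used.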

Additional observations from a re-analysis of the deposited data

Results flagged for a closer look

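Slc6a17 was above vector in Minimal Myc and below it in Myc and MycN, so that its effects differ in sign between cultures, by 2.37 (log2) for Minimal Myc against Myc and by 2.51 for Minimal Myc against MycN. The levels in Myc and MycN, 0.188 and 0.0800 FPKM, are low, and Slc6a17 passed the filter only through Minimal Myc. Slc6a4 was above vector in MycN and below it in Minimal Myc, a difference of -1.88 for Minimal Myc against MycN. Slc38a7 was above vector in Minimal Myc and below it in MycN, a difference of 1.80 for Minimal Myc against MycN, though after centring Minimal Myc lay below vector too, at -0.15. These differences between cultures were not tested, because each culture has 1 library.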

How the results depend on the processing

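No paired analysis was possible because each group has 1 library and the labels give no replicate numbers. For the same reason no replicate could be left out. Counts below are of transporters in the order higher, then lower. With a pseudocount of 0.1, lower counts became 3 in Myc and 2 in MycN against vector, 2 in MycN against Myc and 5 in Minimal Myc against Myc. With a pseudocount of 5, higher counts against vector became 0, 2 and 0 for Myc, MycN and Minimal Myc, with 0 in MycN against Myc, 1 in Minimal Myc against Myc and 0 in Minimal Myc against MycN; lower ones became 0 in MycN against vector, 1 in Minimal Myc against Myc and 3 in Minimal Myc against MycN. A filter at a mean of 5 FPKM left 16 genes. Its higher counts were 1 in Myc and 2 in MycN against vector, 1 in MycN against Myc, 1 in Minimal Myc against Myc and 0 in Minimal Myc against MycN, and its lower counts 0 in MycN against vector, 1 in Minimal Myc against Myc and 2 in Minimal Myc against MycN, fewer genes being tested. Called at 1.5-fold, 9, 12 and 7 were higher than vector in Myc, MycN and Minimal Myc and 2 lower in Myc; 7 were higher and 3 lower in MycN against Myc, and 5 lower in Minimal Myc against Myc. Centring gave 1 higher and 2 lower in Myc and 1 higher and 1 lower in Minimal Myc against vector. The scaled table gave 19 higher in Myc and 11 in MycN against vector, 0 higher and 5 lower in MycN against Myc, and 1 higher and 8 lower in Minimal Myc against Myc. Taking away the chromosome's median, an alternative chosen after seeing the data, gave 1 lower in Myc and 1 higher in Minimal Myc against vector and 2 lower in MycN against Myc. Without Slc38a7, also chosen after seeing the data, 0 were lower in MycN against vector and 1 higher in Minimal Myc against MycN. Counts stayed within 1.5 times with no filter, with the highest row of a symbol, with Slc7a6os kept and with a filter on any library. Over 11640 genes without small RNA symbols, the background of higher genes against vector was 11.2%, 7.65% and 13.6% in Myc, MycN and Minimal Myc. No transporter difference of at least 2-fold in unscaled FPKM changed sign under these alternatives; Slc6a8 in Myc against vector, under 2-fold there at -0.98, was -1.45 centred and 0.02 scaled. The cause of a moved count was not tested. Shares of all genes were computed for unscaled, centred and scaled values alone, with the main filter, pseudocount and fold. Counts under the other alternatives have no background beside them, so they do not set the transporters apart from all genes.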

Other observations

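Slc43a1 and Slc43a3 lie near each other on mouse chromosome 2 with Rtn4rl2, a Nogo receptor relative, between them (gene order of GRCm38.p6 among the genes in the table). Rtn4rl2 was 3.92 FPKM in Myc, 25.4 in MycN, 1.20 in Minimal Myc and 0.336 in vector. All 3 genes of this run had their highest level in MycN, in unscaled and in scaled FPKM. The next gene before Slc43a1, Timm10, a mitochondrial import chaperone, was 55.7 FPKM in Myc, 38.8 in MycN, 63.9 in Minimal Myc and 26.6 in vector and did not share that order. The genes were looked at because Slc43a1 has the widest range of the transporters in log2(FPKM + 1).

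Slc38a1, Slc38a2 and Slc38a4 also follow each other on chromosome 15, and all 3 were highest in MycN in unscaled FPKM. In the scaled table Slc38a2 was highest in Myc, at 144 FPKM against 143 in MycN. Scaf11, the gene before them, was 29.5 FPKM in Myc, 38.2 in MycN, 35.6 in Minimal Myc and 23.1 in vector. Amigo2, the gene after them, was 0.511 FPKM in Myc, 1.14 in MycN, 2.57 in Minimal Myc and 0.479 in vector and was highest in Minimal Myc. Nipbl and Ranbp3l, the neighbours of Slc1a3 on that chromosome, were highest in MycN in unscaled FPKM, at 25.3 and 1.55, against 18.2 and 1.31 in vector. In the scaled table Scaf11, Nipbl and Ranbp3l were highest in Myc. Chromosomes other than those of the report also stood apart. In unscaled FPKM, genes of chromosome 17 were highest in MycN in 53.2% of 586 cases, beside 29% of all genes. Those of chromosome 16 were highest in Minimal Myc in 66.2% of 340, beside 35.3% of all genes. In the scaled table these shares were 9.22% and 15.3%, beside 6.18% and 9.29% of all genes.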
